A study of Mus musculus with 4 samples.

Results

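The chemokine CXCL12, its receptors and the endothelial chemokine scavengers were followed through the injured mouse jejunum by 5 genes, taken by their symbols from the 32286 features counted: the ligand Cxcl12, the signaling receptor Cxcr4, and the atypical receptors Ackr3, Ackr1 and Ackr4. All 5 were found once in each of the 4 libraries. Single cells were prepared from the distal jejunum of 4 adult male mice 18.5 h after ischemia/reperfusion (I/R), a surgery in which the superior mesenteric artery was clamped and then released. The 2 Control mice were Foxc1fl/fl;Foxc2fl/fl, and the 2 EC-Foxc-DKO mice also carried Cdh5-CreERT2, a Cre recombinase driven from the endothelial Cdh5 promoter that deletes both Foxc genes in blood and lymphatic endothelial cells after tamoxifen. Both groups received tamoxifen and I/R, so no uninjured mouse was among them, and each mouse gave 1 library, called Control 1, Control 2, DKO 1 and DKO 2 by genotype and replicate number. Cells were not sorted, and the tissue was digested with collagenase and DNase.

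CXCL12 draws and retains cells that carry CXCR4, a receptor that signals through G proteins and steers the migration of lymphocytes, blood precursors and endothelial cells. ACKR3 also binds CXCL12, but it takes the chemokine up for degradation instead of signaling through G proteins, and so can limit the amount that reaches CXCR4. ACKR1, a protein of venules, binds inflammatory CC and CXC chemokines, and ACKR4 removes CCL19, CCL21 and CCL25; neither is counted among the classical receptors of CXCL12. The comparison of cell types asks which cells of the jejunum could supply, receive or take up CXCL12 after I/R, and that of genotypes whether these levels differed with endothelial loss of Foxc1 and Foxc2.

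By GENCODE on GRCm38, which is the same assembly as mm10, Cxcl12 (ENSMUSG00000061353) lies on chromosome 6 from 117168535 to 117181367 on the plus strand. Cxcr4 (ENSMUSG00000045382) and Ackr3 (ENSMUSG00000044337) lie on chromosome 1, from 128588199 to 128592293 on the minus strand and from 90203980 to 90216751 on the plus strand. Ackr1 (ENSMUSG00000037872) lies on the minus strand of the same chromosome from 173331886 to 173333750, where 493 of its bases overlap Cadm3, a cell adhesion gene on the same strand, so that reads from the shared bases cannot be given to one of them. Ackr4 (ENSMUSG00000079355) lies on chromosome 9 from 104084157 to 104126933 on the minus strand, inside Acad11, which is read from the plus strand. Whether the counting used strand is not stated in the sources used here.

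The libraries held 3623 to 7347 barcodes and 15557181 to 72046346 unique molecular identifiers (UMIs, tags that let copies of 1 captured molecule count once). The median share of mitochondrial UMIs was 14.98% to 54.0% per library, highest in Control 2, and a limit of 10% left 5615 of 22679 barcodes (24.8%), with 348 to 2742 cells per mouse and a median of 4254 to 19871 UMIs per cell. Between libraries, 51 barcodes were shared, and 24 of the kept cells carried such a barcode. The cells were clustered without the 5 genes, and 21 cell types were named from marker lists, so that each name stands for a cluster like that type, while 232 cells (4.13%) stayed unnamed. Blood endothelial cells (BECs) numbered 31, 29, 86 and 24 in Control 1 and 2 and DKO 1 and 2, and lymphatic endothelial cells (LECs) 5, 10, 5 and 0. Of stromal fibroblasts, 29 came from Control 2 and 41 from DKO 1, against 2 and 1 in the other mice, so that values of these cells rest on 1 mouse per genotype. As a check of the genotypes, Foxc1 had 1, 5, 1 and 0 UMIs in BECs of the 4 mice in the same order, Foxc2 had 0 in all 4, and the Cre sequence had 0, 0, 3 and 2. The deletion could thus not be measured at this depth, and Cre was seen in BECs of EC-Foxc-DKO mice only.

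Cxcl12, the ligand, was highest in BECs, followed by stromal fibroblasts and enteric glia, the supporting cells of the gut nervous system. The unit is CPM, which sets the UMIs of a gene against 1000000 UMIs that the cell type held in that mouse. In BECs, Cxcl12 was at 1237 and 2086 CPM in Control 1 and 2 and at 1047 and 1054 CPM in DKO 1 and 2, a mean of 1356 ± 495 CPM (SD, n = 4). Stromal fibroblasts had 892 CPM in Control 2 and 999 CPM in DKO 1, the only mice with at least 5 of these cells, and enteric glia had 229, 180, 196 and 383 CPM. These 3 types did not overlap between mice in that order, and glia did not overlap with LECs, the next in order, at 40.6 ± 49.4 CPM (SD, n = 3). LECs and the smooth muscle cells/pericytes, at 36.9 ± 13.9 CPM (SD, n = 3), could not be ordered. All other types had a mean of at most 3.35 CPM. The glia cluster also showed 5 of 10 stromal fibroblast markers, and their part in its Cxcl12 level was not tested. Without high doublet scores, stromal fibroblasts had 892 and 1117 CPM in Control 2 and DKO 1. BECs then had 1272, 2086, 1081 and 1058 CPM in Control 1 and 2 and DKO 1 and 2. BECs and stromal fibroblasts overlapped in this setting and were thus not firmly ordered. With cells of up to 20% mitochondrial UMIs, stromal fibroblasts had 134, 688 and 545 CPM in Control 1 and 2 and DKO 1, where Control 1 now had at least 5 of these cells, and the mean was 456 CPM instead of 945 CPM, so that they overlapped with glia.

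Most single BECs and stromal fibroblasts held the ligand. A Cxcl12 UMI was found in 129 of 170 BECs (75.9%, exact 95% interval 68.7% to 82.1%), in 69 of 73 stromal fibroblasts (94.5%, 86.6% to 98.5%) and in 51 of 92 enteric glia (55.4%, 44.7% to 65.8%). As background, 3 of 1380 follicular B cells (0.217%) held one, with median depths of 3246 UMIs in these cells and 4332 UMIs in BECs. All intervals here are exact binomial (Clopper-Pearson) and cover counting error only. When each cell was thinned to 1000 UMIs to even out depth, the expected shares were 56.7% of BECs, 58.2% of stromal fibroblasts and 22.6% of glia, so that BECs and stromal fibroblasts came close to each other. At these cell numbers, BECs supplied 66.5% of the 1869 Cxcl12 UMIs of all kept cells, between 56.8% and 88.5% in the single mice, stromal fibroblasts 26.2% and glia 5.51%. Such shares follow how many cells of each type survived digestion and the filters as much as the level in each.

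**Figure D1:**
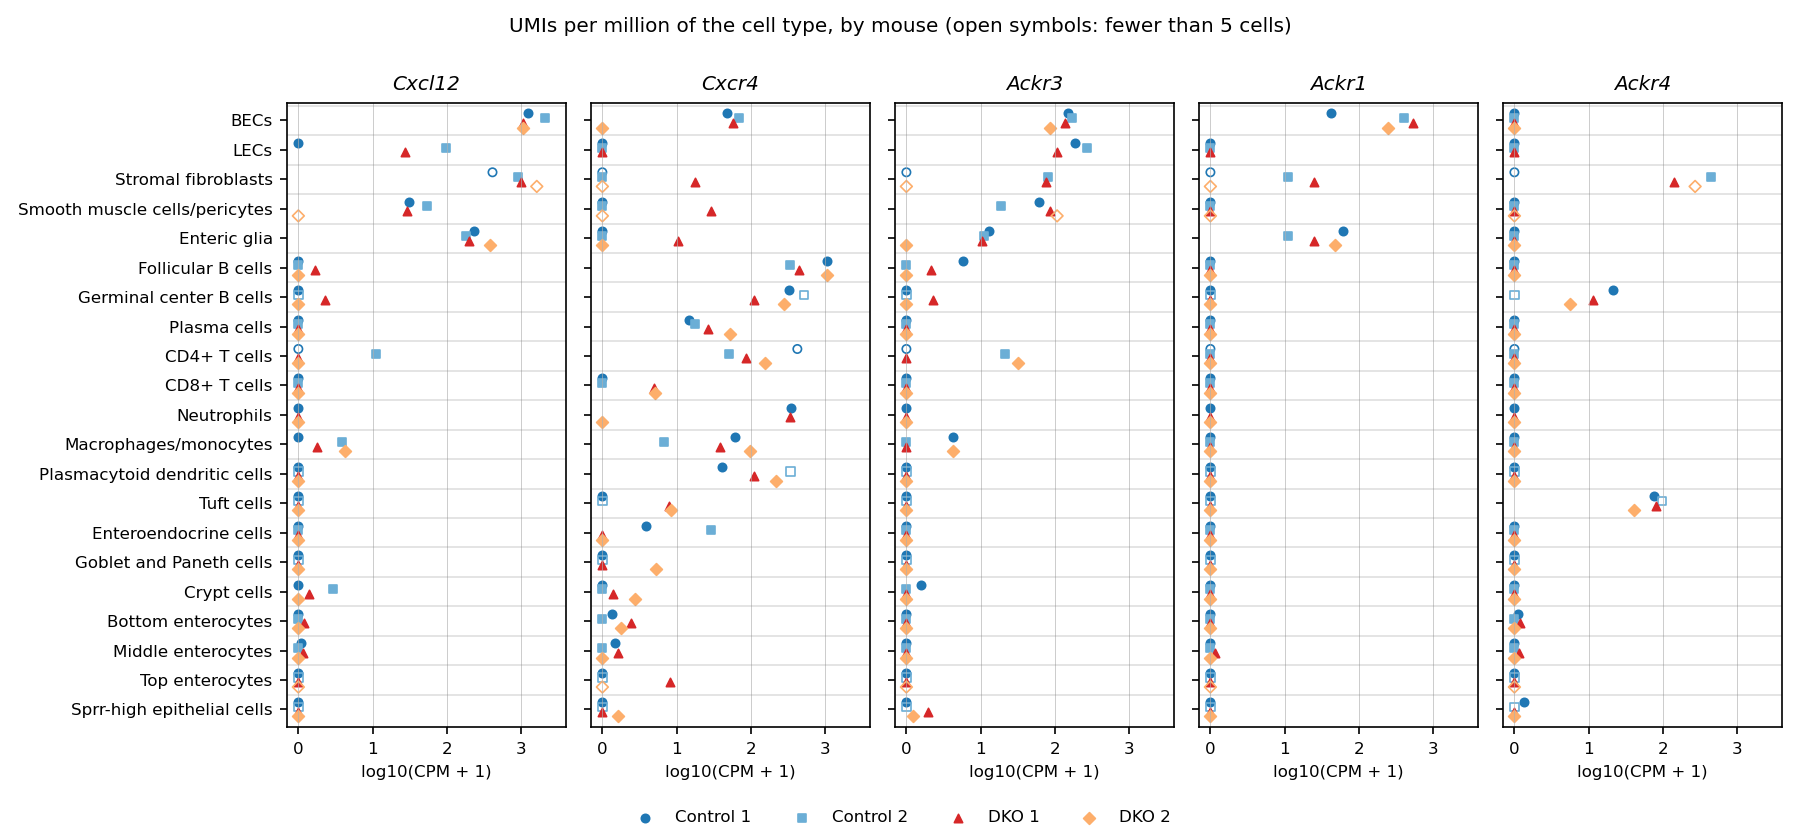
Level of each gene in every named cell type, as log10 of CPM plus 1 on the x axis, with 1 symbol per mouse and open symbols for fewer than 5 cells of that type in a mouse. Cxcl12 sits highest in BECs (1047 to 2086 CPM), Cxcr4 in follicular B cells (331 to 1061 CPM), Ackr3 in LECs and BECs, Ackr1 in BECs, and Ackr4 in stromal fibroblasts and tuft cells.

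Within the BECs, Cxcl12 was unevenly spread. The 170 BECs were clustered by themselves without the 5 genes, which gave 4 subclusters. Subcluster 1 (53 cells) was led by Proser2, Nav2 and Esm1, subcluster 2 (47 cells) by Fscn1, Aqp7 and Gpihbp1, a capillary lipoprotein-binding protein, and subcluster 3 (39 cells) by Kcne3, Lox and Dkk2 and showed all 9 arterial markers, but only subcluster 4 (31 cells) met the rule for a name. It was venous-like, with 7 of 9 venous markers, and was led by Madcam1, the address molecule for gut-homing lymphocytes, and Selp, with the leukocyte genes Ptprc and Cd53 also among its leading genes. Subclusters 1 and 2 held 33.8% and 54.1% of the Cxcl12 UMIs of BECs, at 2556 and 2286 CPM over all mice, and subclusters 3 and 4 held 5.80% and 6.28%, at 351 and 286 CPM. In every mouse with at least 5 cells of both, subcluster 2 exceeded subcluster 3, with 1328 against 395 CPM in Control 1, 1969 against 419 CPM in DKO 1 and 1714 against 399 CPM in DKO 2. The highest level of these 4 subclusters in a single mouse was 3828 CPM, in subcluster 1 of Control 2. At a finer resolution of 1.5, chosen after the data were seen, BECs with arterial markers differed in Cxcl12. A subcluster of 20 cells that met the rule for the name arterial had 1224 CPM (921, 2649 and 829 CPM in Control 1 and 2 and DKO 1). Another of 30 cells, with 7 of 9 arterial markers but no name, had 348 CPM.

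Cxcr4, the signaling receptor, was highest in B cells and neutrophils, and endothelial cells were below B cells. Follicular B cells, the resting B cells of lymphoid follicles, had 1042, 331, 446 and 1061 CPM in Control 1 and 2 and DKO 1 and 2, a mean of 720 ± 386 CPM (SD, n = 4). The high and the low mice were split between the genotypes, with 1 of each in either. Germinal center B cells, which divide and select their antibodies in follicles, followed at 239 ± 114 CPM (SD, n = 3) in the mice with at least 5 of these cells, with a highest value of 328 CPM next to a lowest of 331 CPM in follicular B cells. The 2 types overlapped with cells of up to 20% mitochondrial UMIs (465 CPM against 441 CPM) and without high doublet scores (342 CPM against 331 CPM), and were thus not set apart. Neutrophils had 347, 333 and 0 CPM in Control 1 and DKO 1 and 2, where the last value rests on 6 cells, and Control 2 had none of these cells. Next came plasmacytoid dendritic cells (121 ± 88.1 CPM, n = 3), whose cluster also showed 6 of 10 markers of conventional dendritic cells, CD4+ T cells (96.5 ± 53.4 CPM, n = 3) and macrophages/monocytes (49.8 ± 38.2 CPM, n = 4), each overlapping with its neighbor in the order.

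Shares of positive cells were highest in follicular B cells as well. A Cxcr4 UMI was found in 1001 of 1380 follicular B cells (72.5%, 70.1% to 74.9%), 54 of 105 germinal center B cells (51.4%), 23 of 42 plasmacytoid dendritic cells (54.8%), 27 of 56 neutrophils (48.2%), 42 of 135 CD4+ T cells (31.1%) and 80 of 374 macrophages/monocytes (21.4%). In CD8+ T cells it was found in 5 of 410 cells (1.22%, 0.397% to 2.82%), whose median depth of 4436 UMIs lay above the 3246 of follicular B cells. The leading genes of this cluster included Trdc, Tcrg-C1 and Tcrg-C2, of the gamma delta T cell receptor. It showed 9 of 10 CD8+ T cell markers, without Cd8b1, which was a leading gene of the CD4+ T cell cluster. These 2 names thus do not cleanly part conventional CD4+ and CD8+ T cells. After thinning to 1000 UMIs, 38.1% of follicular B cells were expected to hold a Cxcr4 UMI, 27.7% of neutrophils, 16.4% of germinal center B cells and 0.352% of CD8+ T cells. Middle and bottom enterocytes, the absorptive cells of the villus, held it in 1.42% and 1.92% of cells at medians of 26700 and 31193 UMIs, and at 0.0485% and 0.0777% after thinning. Follicular B cells held 78.7% of all 3256 Cxcr4 UMIs, but this share was 86.3% in DKO 1, which gave 1206 of the 1380 cells, and 30.0% in Control 2.

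All Cxcr4 UMIs of macrophages/monocytes came from one of the clusters that carry the name. The cluster led by the chemokine genes Ccl2 and Ccl7 (295 cells, median 9524 UMIs) had 62.8, 5.84, 38.6 and 96.6 CPM of Cxcr4 in Control 1 and 2 and DKO 1 and 2. The cluster led by complement C1q genes (79 cells) had 0 UMIs at a median of only 966 UMIs per cell, which allows up to 52.4 CPM in DKO 1 and 83.5 CPM in Control 1. Within these single mice, a difference between the clusters was thus not detectable at this depth.

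In vessels, Cxcr4 was lower than in B cells. BECs, at 42.5 ± 29.5 CPM (SD, n = 4), came next after macrophages/monocytes and overlapped with them. They held 1.20%, 21.4%, 1.08% and 0% of the Cxcr4 UMIs of Control 1 and 2 and DKO 1 and 2. BECs had 47.1, 66.9, 56.2 and 0 CPM in the 4 mice, and 21 of 170 cells (12.4%, 7.81% to 18.3%) held a UMI, against 1.22% of CD8+ T cells, both at a median between 4331 and 4436 UMIs. Of these 21 cells, 5 also held Ptprc, the pan-leukocyte gene, and the 11 BECs with Ptprc had 165 CPM of Cxcr4 against 37.0 CPM in the 159 without it. Without BECs that held a UMI of Ptprc, Cd3d, Cd3e, Cd3g or Nkg7, Cxcr4 stood at 55.8, 66.9, 23.96 and 0 CPM, so that it remained in both Control mice and was at less than its former level in DKO 1. Of the 10 CD8+ T cell markers, 3, 1, 8 and 8 were found in BECs of the 4 mice, at summed levels of 20.2, 4.46, 416 and 2676 CPM. Of the 10 follicular B cell markers, 3, 0, 10 and 0 were found, at 20.2, 0, 450 and 0 CPM. LECs held no Cxcr4 UMI in 20 cells, which allows up to 15% of cells with a UMI and a level of up to 24.5 CPM. The share of BECs (12.4%) lay within that limit, so that a difference in share was not detectable. The level of BECs over all mice, 50.2 CPM, lay above the limit in CPM, as did the 37.0 CPM of BECs without Ptprc. Within single mice, 3 counts in LECs would allow 138, 47.8 and 78.9 CPM in Control 1 and 2 and DKO 1. The BEC values lay above that limit in Control 2 only, so that a difference in level was not shown from mouse to mouse.

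**Figure D2:**
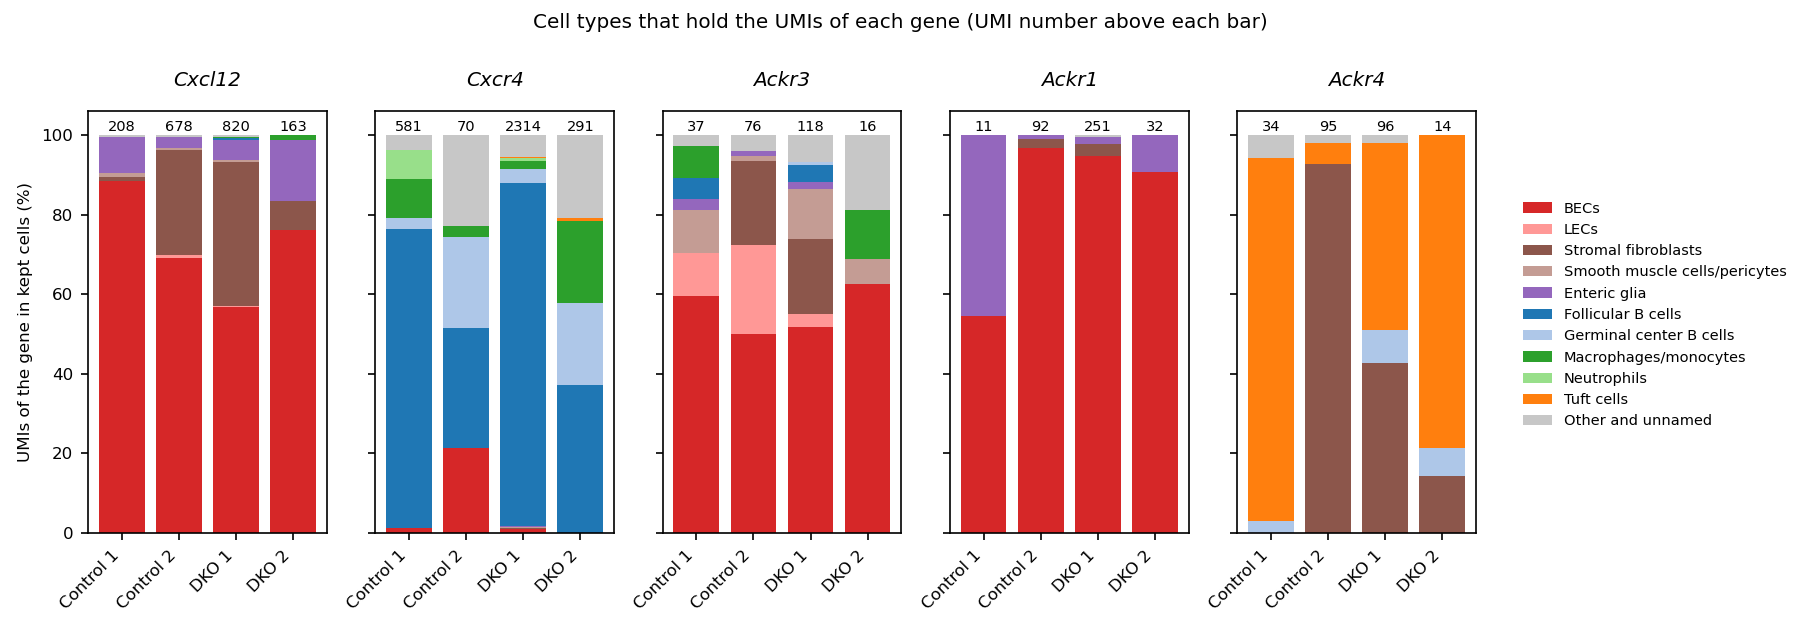
Share in percent of the UMIs of each gene that each cell type held, with 1 bar per mouse (DKO stands for EC-Foxc-DKO) and the number of UMIs above each bar. BECs hold most Cxcl12 and Ackr1 UMIs in every mouse and 50.0% to 62.5% of Ackr3 UMIs. Follicular B cells hold the largest share of Cxcr4 UMIs in every mouse, from 30.0% to 86.3%, whereas the holders of Ackr4 UMIs change from mouse to mouse.

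Ackr3, the scavenger of CXCL12, was the atypical receptor found in both kinds of endothelium. LECs had 184 and 271 CPM in Control 1 and 2 and 105 CPM in DKO 1, a mean of 187 ± 82.9 CPM (SD, n = 3) from 25 UMIs in 20 cells. BECs had 148, 169, 137 and 85.0 CPM in the 4 mice, a mean of 135 ± 35.9 CPM (SD, n = 4), and overlapped with LECs. BECs and LECs could thus not be ordered, and the LEC values rest on 4, 17 and 4 UMIs. Of the 12 BEC markers, 8, 8 and 11 were also found in LECs of the 3 mice, at summed levels of 3441, 5225 and 6626 CPM. Flt1, Plvap, Ly6c1 and Esam were at 0 in LECs of both Control mice, and only Ly6c1 was in DKO 1. Outside the endothelium, Ackr3 was found in stromal fibroblasts at 79.7 and 74.0 CPM in Control 2 and DKO 1, just below the lowest BEC value. That value, of DKO 2, was 73.4 CPM without high doublet scores, so that BECs and stromal fibroblasts were not firmly set apart. Smooth muscle cells/pericytes had Ackr3 at 53.7 ± 33.5 CPM (SD, n = 3).

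A UMI of Ackr3 was found in 12 of 20 LECs (60%, 36.1% to 80.9%), 19 of 45 smooth muscle cells/pericytes (42.2%, 27.7% to 57.8%), 60 of 170 BECs (35.3%, 28.1% to 43.0%) and 14 of 73 stromal fibroblasts (19.2%, 10.9% to 30.1%). In follicular B cells the share was 0.435% (6 of 1380). Across BEC subclusters Ackr3 was spread more evenly than Cxcl12, at 134, 71.4, 146 and 213 CPM in subclusters 1 to 4, with 44.3% of the BEC UMIs in the venous-like one. Ligand and scavenger were met in the same vessel cells, since 41 of the 60 BECs with Ackr3 also held Cxcl12, as did 129 of all 170. BECs with Ackr3 were sequenced more deeply than those without it, at a median of 5680 against 3668 UMIs. Over all cell types, BECs held 53.0% of the 247 Ackr3 UMIs, stromal fibroblasts 15.4%, LECs 10.1% and smooth muscle cells/pericytes 8.50%.

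Ackr1, the venular scavenger of inflammatory chemokines, was carried by few BECs at high level. BECs had 40.3, 397, 535 and 246 CPM in Control 1 and 2 and DKO 1 and 2, a mean of 305 ± 212 CPM (SD, n = 4), and held 93.8% of the 386 Ackr1 UMIs of all kept cells. The UMIs came from 19 of 170 BECs (11.2%, 6.86% to 16.9%), with 1, 3, 12 and 3 such cells in the 4 mice. None was found in 1380 follicular B cells, where 3 cells would be 0.217%. The 5 BECs with the most UMIs held 202 of 362 (55.8%), the highest cell 53, so that the level of a mouse turned on few cells. Without cells of high doublet scores, and with the rest clustered again, BECs of DKO 2 were at 10.5 CPM instead of 246 CPM, and the other mice at 48.6, 397 and 581 CPM.

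All 362 Ackr1 UMIs of BECs lay in the venous-like subcluster, at 1328 CPM, and none in the 139 cells of the other 3 subclusters, although the gene was not used to form them. Per mouse, the venous-like cells had 188 and 1455 CPM in the 3 cells of each Control mouse and 1738 and 682 CPM in the 17 and 8 cells of DKO 1 and 2. At a finer resolution of 1.5, chosen after the data were seen, the venous-like subcluster of 23 cells held 98.1% of them. Of the 19 BECs with Ackr1, 13 also held Ackr3, 2 held Cxcl12 and 6 held Cadm3, the gene that overlaps Ackr1. None of the 151 BECs without Ackr1 held Cadm3, so that the 2 genes cannot be fully told apart in BECs either. The cells with Ackr1 had a median of 7789 UMIs against 3938 in the other BECs. Pooled over the mice, the ligand Cxcl12 and Ackr1 were thus found mostly in different BECs, with Ackr3 in both. Cxcl12 in the venous-like subcluster varied between mice, at 845 and 114 CPM in Control 1 and 2 and 43.8 and 894 CPM in DKO 1 and 2. Its 27 UMIs of Control 1 lay in 1 cell, and in DKO 2 5 of 8 cells held it.

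Low Ackr1 values outside vessels are uncertain, since the gene shares bases with Cadm3. Whether these UMIs came from Cadm3 was not tested. Enteric glia had 60.2, 10.0, 23.9 and 46.0 CPM of Ackr1 from 14 UMIs, and 10 of 92 glia (10.9%) held one. Of these 10 cells, 7 also held Cadm3, which was itself in 43 of the 92 glia at 108, 120, 225 and 153 CPM, and none held Pecam1. Stromal fibroblasts had 9 UMIs of Ackr1 in 9 of 73 cells, 6 of which held Cadm3. In BECs, where Ackr1 was highest, Cadm3 was at 6.72, 35.7, 8.99 and 0 CPM. The 20 LECs held no Ackr1 UMI, with the same limits as for Cxcr4.

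**Figure D3:**
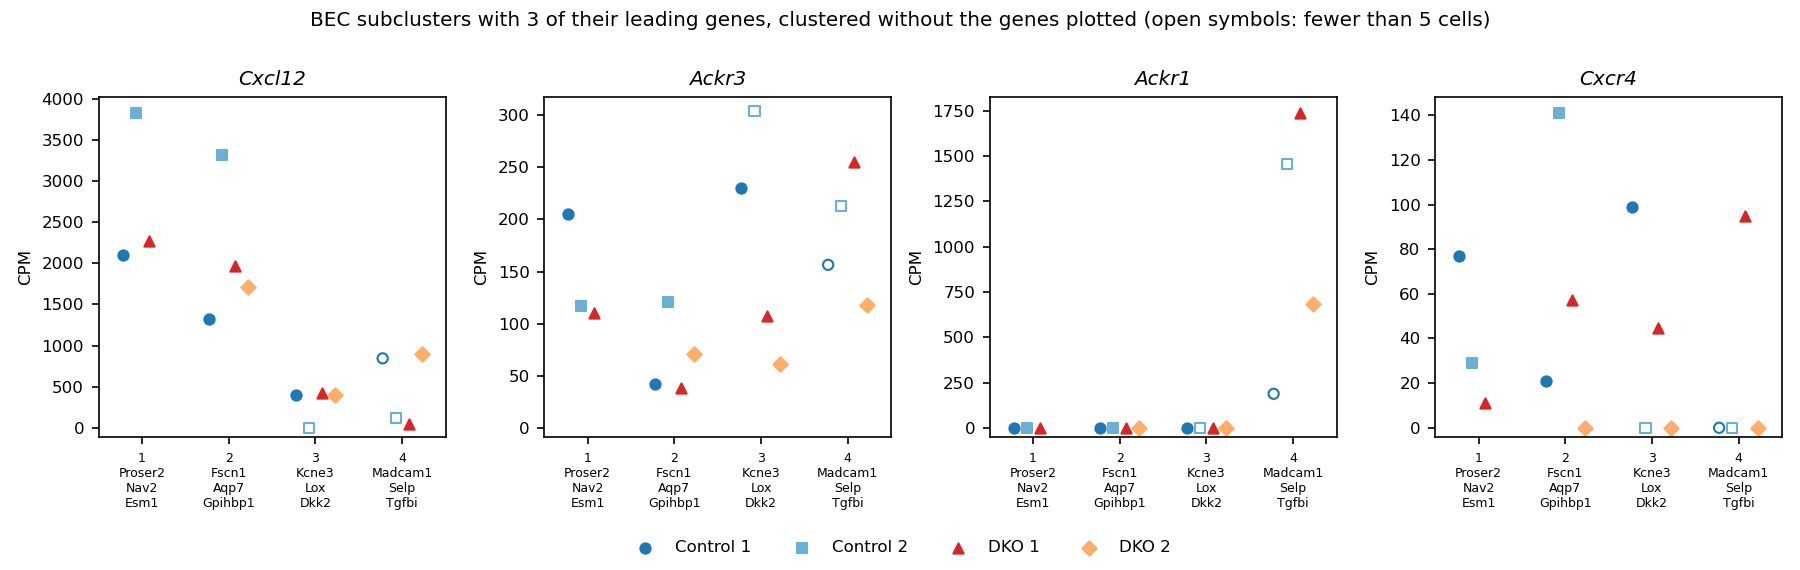
Level in CPM (y axis, linear) of 4 genes in the 4 subclusters of BECs, with 1 symbol per mouse and open symbols for fewer than 5 cells. Cxcl12 is highest in subclusters 1 and 2, all Ackr1 lies in the venous-like subcluster 4 (188 to 1738 CPM), and Ackr3 is found in all 4.

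Ackr4, which takes up CCL19, CCL21 and CCL25, gave no UMI in endothelial cells. It had 0 UMIs in 170 BECs, which allows up to 1.76% of cells with a UMI and a level of up to 3.21 CPM, and 0 UMIs in 20 LECs, which allows up to 15% and 24.5 CPM. These limits hold for cells with a UMI, not for cells that express the gene. Stromal fibroblasts held it at 438 CPM in Control 2 and at 138 CPM in DKO 1 (303 and 77.4 CPM with cells of up to 20% mitochondrial UMIs, and 0 CPM in Control 1), in 28 of 73 cells over all mice (38.4%, 27.2% to 50.5%). Tuft cells, the chemosensory cells of the epithelium, had 74.0, 78.2 and 40.2 CPM in Control 1 and DKO 1 and 2, a mean of 64.2 ± 20.8 CPM (SD, n = 3), and 95.02 CPM in the 3 cells of Control 2. Of 66 tuft cells, 41 held Ackr4 (62.1%, 49.3% to 73.8%) at a median of 17168 UMIs, and the share expected after thinning to 1000 UMIs was 8.13% against 16.8% in stromal fibroblasts. Other epithelium at similar or greater depth held Ackr4 in 2 of 677 bottom enterocytes (0.295%) and 1 of 634 middle enterocytes (0.158%).

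Germinal center B cells were the third site, with 10 UMIs in 8 of 105 cells (7.62%, 3.35% to 14.5%), while follicular B cells held none. Of the 239 Ackr4 UMIs of all kept cells, stromal fibroblasts held 54.8%, tuft cells 38.5% and germinal center B cells 4.18%. The share of stromal fibroblasts was 92.6% in Control 2 and 0% in Control 1, which had only 2 of these cells. Of the 28 stromal fibroblasts with Ackr4, 26 also held Cxcl12, as did 69 of all 73.

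The stromal cells with Ackr4 also differed in other genes, picked after the data were seen and given without a test. Grem1, a secreted inhibitor of bone morphogenetic proteins, was at 1214 and 2008 CPM in cells with Ackr4 of Control 2 and DKO 1, and at 375 and 187 CPM in those without. Cd81, a tetraspanin, was at 478 and 432 CPM with Ackr4 and at 0 and 218 CPM without. Cxcl12 itself was at 793 and 1205 CPM with Ackr4 and at 1049 and 896 CPM without, so that it was higher in one mouse and lower in the other. Cells with Ackr4 were deeper, at a median of 7894 and 6668 UMIs against 4992 and 5686.

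Genotypes were compared in each cell type on the UMIs summed per mouse, by the quasi-likelihood test of edgeR, and p-values were adjusted by Benjamini and Hochberg's method across the genes tested in a type (threshold 0.05). Fold changes are on the log2 scale as EC-Foxc-DKO over Control, each with its standard error (SE). No member passed in any cell type. In BECs, where Cxcl12, Cxcr4, Ackr3 and Ackr1 had enough UMIs to be tested, 0% of 3512 genes were called by edgeR, 96 genes had an unadjusted p below 0.05, and DESeq2 called 1. For Cxcl12 in BECs, DKO 1 and 2 (1047 and 1054 CPM) lay below Control 1 and 2 (1237 and 2086 CPM), so that the groups did not overlap. This gave a log2 fold change of -0.67 (SE 0.29, edgeR unadjusted p = 0.0404, adjusted p = 0.999). Without Control 2, the mouse with the highest level, it was -0.25, and without Control 1 it was -0.99. With cells of up to 20% mitochondrial UMIs, BECs of Control 1 and 2 were at 1027 and 1875 CPM and those of DKO 1 and 2 at 1037 and 1276 CPM, so that the groups overlapped, and the log2 fold change was -0.35.

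The mix of BECs also varied between mice. Subclusters 1 and 2, which held most Cxcl12, were put together after their levels were seen, and so were 3 and 4. The first 2 made up 71.0% and 79.3% of BECs in Control 1 and 2 and 54.7% and 33.3% in DKO 1 and 2. The exact 95% intervals were 52.0% to 85.8%, 60.3% to 92.0%, 43.5% to 65.4% and 15.6% to 55.3%. Subcluster 1 had no cell in DKO 2. Within subclusters 1 and 2 together, Cxcl12 was at 1678 and 3452 CPM in Control 1 and 2 and at 2110 and 1714 CPM in DKO 1 and 2, and within subclusters 3 and 4 at 626 and 77.1 CPM against 213 and 679 CPM. Inside each of these sets the genotypes overlapped. What part the mix had in the difference over all BECs was not tested. The BECs also differed in macrophage markers, of which 9, 3, 6 and 4 of 10 were found in the 4 mice at summed levels of 2191, 17.8, 29.2 and 42.5 CPM, and their part in the result was not tested.

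Ackr3 in BECs did not overlap between genotypes either, at 148 and 169 CPM in Control 1 and 2 and at 137 and 85.0 CPM in DKO 1 and 2, with a log2 fold change of -0.44 (SE 0.37, edgeR adjusted p = 0.999). With cells of up to 20% mitochondrial UMIs, Ackr3 was at 135 and 163 CPM in Control 1 and 2. DKO 1 and 2 were then at 132 and 131 CPM, close to Control 1, and the log2 fold change was -0.20. Cxcr4 had a log2 fold change of -0.57 (SE 0.78) and Ackr1 of 0.82 (SE 0.70), both with an edgeR adjusted p of 0.999, and their groups overlapped. For Ackr1, 1 mouse decided the value. Its log2 fold change became 3.30 without Control 2 (SE 0.64, edgeR adjusted p = 4.5e-05, against 0.489 or more under every other alternative), whereas without Control 1 it was 0.026 and without DKO 1 it was 0.05. Leaving out Control 2 left 1 Control mouse, whose spread was taken from the other genotype and whose Ackr1 UMIs lay in 1 cell of 31.

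In LECs, edgeR called 4 of 907 genes (0.441%), and Ackr3, the only member tested, was not among them, with a log2 fold change of -1.25 (SE 1.19, adjusted p = 0.886). This compares 15 LECs of both Control mice with 5 of DKO 1, since DKO 2 had none and was left out of the fit, so that the p-values rest on the spread of the Control mice and DKO 1 is assumed to vary like them. In stromal fibroblasts, edgeR called 8 of 1852 genes (0.432%), and neither Cxcl12 (log2 fold change 0.76, SE 1.44) nor Ackr4 (-1.05, SE 1.12) was among them, both with an adjusted p of 1.00. Without Control 1, which had 2 cells, the log2 fold change of Cxcl12 was -0.022, and the fold change of Ackr4 turned to 0.12 with the replicate number as a block. DESeq2 called no gene in LECs or stromal fibroblasts.

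Enteric glia, follicular B cells and macrophages/monocytes were also tested. In glia, 0% of 1644 genes were called by edgeR (38 at an unadjusted p below 0.05, and 0 by DESeq2), and the log2 fold change of Cxcl12 was 0.40 (SE 0.47, adjusted p = 1.00) and -0.052 without DKO 2. In follicular B cells, 0% of 3418 genes were called by edgeR (68 at an unadjusted p below 0.05, and 0 by DESeq2), and Cxcr4 differed by 0.012 (SE 0.36, adjusted p = 1.00). This near-zero value ranged from -0.56 without DKO 2 to 1.09 when another mouse was left out. In macrophages/monocytes, 0% of 6884 genes were called by edgeR (153 at an unadjusted p below 0.05, and 0 by DESeq2), and Cxcr4 had a log2 fold change of 0.74 (SE 0.73, adjusted p = 0.999). Its levels were 60.4 and 5.77 CPM in Control 1 and 2 and 36.8 and 96.2 CPM in DKO 1 and 2, which overlap, and without Control 1 the log2 fold change was 3.44 (edgeR adjusted p = 0.040) against the 2 UMIs of Control 2, a call that no other alternative gave. Without DKO 2 it was -0.035. None of the 5 genes had enough UMIs to be tested in bottom or middle enterocytes, crypt cells, CD8+ T cells or plasma cells.

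**Figure D4:**
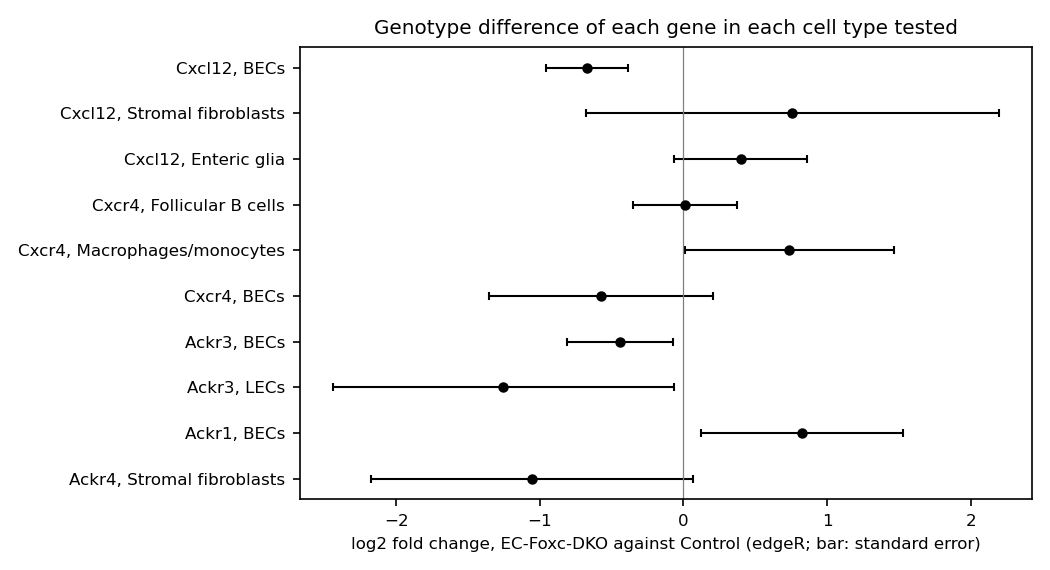
Log2 fold change of each gene between EC-Foxc-DKO and Control mice (x axis) in every cell type where it was tested, with bars for 1 standard error from edgeR. Cxcl12 in BECs (-0.67) has the narrowest bar, and no gene passed the test after adjustment.

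The wider pathway was read from a list of 46 genes with 4 parts: other ligands of CXCR4 and ACKR3 with their partners (8 genes), proteases that cut CXCL12 (6 genes), signaling and desensitization below the receptors (17 genes), and chemokines bound by ACKR1, ACKR2 or ACKR4 with Ackr2 itself (15 genes). In BECs 13 of the 46 were tested and none was called, with a median log2 fold change of 0.05 beside 0.004 over all genes tested. In LECs 7 were tested and none was called (median 0.26 beside -0.06), and in stromal fibroblasts 11 were tested and 1 fell (median -0.33 beside 0.05). Enteric glia, follicular B cells and macrophages/monocytes had 8, 15 and 29 of them tested and none called, with medians of -0.05, -0.13 and 0.005 beside -0.01, -0.01 and 0.003.

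The gene that fell in stromal fibroblasts was Cxcl14, a chemokine that can bind CXCR4, at 110 CPM in Control 2 and 23.6 CPM in DKO 1, with 1 UMI in the 2 cells of Control 1 and 0 in the 1 cell of DKO 2. It fell by 2.30 on the log2 scale (SE 0.62, edgeR adjusted p = 0.047), and 21 of the 22 UMIs of Control 2 lay in 1 cell. The call was lost without TMM scaling, without the filter on low genes, with the replicate block, without Control 1 or DKO 2, at a clustering resolution of 1.0 and with DESeq2. No lower gene was called with cells of up to 20% mitochondrial UMIs, without Control 2 or without high doublet scores, and Cxcl14 did not pass the filter on low counts there or without DKO 1. Epithelial markers moved in these cells as well, with 20, 40, 45 and 11 of 70 found in the 4 mice at summed levels of 8777, 3208, 13461 and 2956 CPM, and the other genes called there included Muc3 and Muc13, mucins of the epithelial surface. Their part in the result was not tested.

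In BECs, the 3 genes of the list with the lowest p were Ccl5, Calcrl and Ramp2. Ccl5, a T cell and platelet chemokine that ACKR1 binds, was at 6.72 and 4.46 CPM in Control 1 and 2 and at 164 and 1504 CPM in DKO 1 and 2, with a log2 fold change of 7.07 (SE 1.25, edgeR unadjusted p = 0.000208, adjusted p = 0.397). In DKO 2 its 177 UMIs lay in 2 cells. Without the BECs that held a UMI of Ptprc, Cd3d, Cd3e, Cd3g or Nkg7, Ccl5 was at 7.97, 4.46, 10.7 and 0 CPM. Calcrl and Ramp2 together form the receptor of adrenomedullin, a peptide that ACKR3 also takes up. Calcrl was at 202 and 361 CPM in Control 1 and 2 and 450 and 365 CPM in DKO 1 and 2, with a log2 fold change of 0.52 (SE 0.37), and Ramp2 at 975 and 1489 against 1157 and 739 CPM, with -0.37 (SE 0.31), both with an edgeR adjusted p of 0.999.

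Other ligands that the scavengers bind were read by cell type, and those named were picked after their values were seen. Ccl21a, a ligand of ACKR4, was at a mean of 4065 CPM in LECs (868 to 6883 CPM in 3 mice), next to 5.04 CPM in BECs, and Ccl19 had 2 UMIs in stromal fibroblasts. Ccl25, the small-intestinal ligand of ACKR4, was highest in bottom enterocytes, at a mean of 1149 CPM (780 to 1361 CPM in 4 mice). Of the inflammatory chemokines that ACKR1 binds, Ccl2 and Ccl7 were highest in macrophages/monocytes, at means of 3588 and 3121 CPM. Ackr2, a further scavenger of CC chemokines, had 8 UMIs in LECs, at a mean of 49.4 CPM.

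As a description of likeness, levels as log2(CPM + 10) were correlated between genes over the 63 sums of a mouse and cell type with at least 10 cells, across 21 cell types and 13788 genes. The sums share 4 libraries and differ in depth, and no p is given. Most like Cxcl12 were Fbln5 (Pearson's r = 0.96), Sulf1, Prex2, Pxdn and Lamb1 (0.95), and most like Cxcr4 were Wdfy4 (0.86), Treml2, Syk, A630001G21Rik and Dok3 (0.83). Ackr3 ran with Arhgap29 (0.94), Calcrl, Msrb3, Hoxb7 and Csgalnact1 (0.93), and Ackr1 with Sulf1 (0.90), Pcdh17, Madcam1, Plscr2 and Zbtb46 (0.88). Ackr4 stood with Srpx2 (0.94), Adgrg2, Spon2, Mfap4 and C7 (0.79). Among the members, Cxcl12 was at 0.81 with Ackr3, 0.86 with Ackr1 and 0.28 with Ackr4, and at -0.067 with Cxcr4.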

How the data were processed

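Distal jejuna of 4 mice, 2 Control and 2 EC-Foxc-DKO, were analysed at 18.5 h after I/R, with genotype and replicate number taken from the labels. The authors deposited raw UMI counts as a matrix for every mouse, made from 10x Genomics 3′ libraries (kit v3.1) with Cell Ranger on mm10 with the Cre sequence added. The submitters' processing notes and the file headers name Cell Ranger 4.0.0, and the methods another version. A table that joins the libraries (18407 genes) was used only for its gene set, on which mitochondrial shares were computed, and 0 of its columns were left unused.

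Cells with up to 10% of UMIs on 13 mitochondrial genes were kept. Genes with a mean count under 0.001 were dropped, the rest were scaled to 10000 UMIs in each cell and log-transformed, and genes were called variable from a mean of 0.01 up to 8 when dispersion reached 0.5 (2918 genes, without the 5 members). Clustering used 15 principal components, 15 neighbors and Leiden at a resolution of 0.5 (scanpy 1.11.5, leidenalg 0.10.2), with no batch correction. A cluster was named where at least 3 markers were detected, at 2 times their mean in the other cells and in 10% of cells. These thresholds, the minimum of 10 cells for a name and the rule that split a cluster with at least 80% of the markers of 2 types were set after the clusters were seen. A name was also withheld where another type had more of its markers among the 10 leading genes. The same held for a cluster of low depth without an own marker among them. BEC subcluster 3 stayed unnamed because Kcne3, a capillary marker, was among its leading genes and no arterial marker was. Doublets were kept, and removing the highest Scrublet scores (0.8% per 1000 barcodes) was an alternative. Cell type names were rebuilt here, so that they need not match those of the study.

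UMIs of a cell type were added up in each mouse and tested with edgeR 4.0.16 (R 4.3.3; filterByExpr, TMM, glmQLFTest), in BECs, LECs, stromal fibroblasts and every type with at least 10 cells in each mouse. Standard errors were derived from the fold change and its F statistic. DESeq2 1.42.0 was an alternative. CPM levels are per 1000000 UMIs of all genes, without TMM, and the order of types uses mice with at least 5 cells. Shares carry exact binomial intervals at 95%, and a 0 carries the limit that 3 counts would give. The labels do not say that mice shared a litter or day, and p-values measure the spread between these mice. The test was also run on simulated counts, with an outcome that is not reported here.

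The members and lists were chosen with earlier results of these data known. The text names the 5 members in every cell type, genes of the 46-gene list where they pass the test or have one of the 3 lowest p in BECs, the 5 genes most like each member, and Foxc1, Foxc2 and Cre. Other genes were named after their values were seen. In place of the study's tests over single cells, mice were compared. Those single-cell tests put Cxcl12 significantly lower in EC-Foxc-DKO BECs, and not significantly different in the study's Telocyte/Trophocyte and Fibroblast clusters. The study also compared mice by qPCR of isolated endothelial cells and reported Cxcl12 lower in EC-Foxc-DKO. This was reported after I/R and after sham surgery, which left out the clamp.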

Additional observations from a re-analysis of the deposited data

How the results depend on the processing

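No member passed the test under any alternative run, apart from Ackr1 in BECs without Control 2 and Cxcr4 in macrophages/monocytes without Control 1. Of 119 alternative fold changes 109 kept their direction and side of the threshold, and of 86 alternative mean levels 84 moved by less than 1 SD between mice. The 86 include means with single mice left out, which cannot move by 1 SD of the same mice, so that these say nothing on stability. The direction turned for Ackr4 in stromal fibroblasts with the replicate block (0.12) and for Cxcr4 in follicular B cells without TMM scaling (-0.076) and without barcodes found in 2 libraries (-0.0043). The mean level of Cxcl12 in stromal fibroblasts was 456 CPM with cells of up to 20% mitochondrial UMIs and 655 CPM at a clustering resolution of 1.0. That of Ackr4 in the same cells, with a wide SD over 2 mice, was 127 CPM instead of 288 CPM at 20%, 138 CPM without Control 2 and 438 CPM without DKO 1.

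With single mice left out, the log2 fold change in BECs ranged from -0.99 to -0.25 for Cxcl12, -0.96 to -0.21 for Ackr3, -0.78 to -0.038 for Cxcr4 and 0.026 to 3.30 for Ackr1. In stromal fibroblasts it ranged from -0.022 to 0.89 for Cxcl12 and -1.72 to -0.97 for Ackr4, in glia from -0.052 to 0.79 for Cxcl12, and for Cxcr4 from -0.56 to 1.09 in follicular B cells (turned without Control 2, -0.45, or DKO 2) and -0.035 to 3.44 in macrophages/monocytes. Genes called then numbered 26 to 43 in BECs, 0 to 3 in stromal fibroblasts, 0 to 48 in glia, 0 to 17 in follicular B cells and 1 to 171 in macrophages/monocytes. For LECs no mouse was left out, because EC-Foxc-DKO had 1 mouse with such cells.

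Genes called in BECs, LECs, stromal fibroblasts, glia, follicular B cells and macrophages/monocytes were 0, 4, 8, 0, 0 and 0. DESeq2 called 1 in BECs, 0 in LECs and 0 in stromal fibroblasts. With no filter on low genes there were 63 in BECs, 0 in stromal fibroblasts, 50 in glia, 5 in follicular B cells and 43 in macrophages/monocytes, and with no TMM scaling 3 in stromal fibroblasts. At 20% mitochondrial UMIs there were 10 in LECs and 0 in stromal fibroblasts, at a resolution of 1.0 there were 17 in LECs and 0 in stromal fibroblasts, with the members among the clustering genes 17 in LECs, and without high doublet scores 1 in LECs and 4 in stromal fibroblasts. The cause was not tested.

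Mice with the same replicate number share only a number, and their deviations from the group means correlated at -0.02 in BECs, -0.03 in stromal fibroblasts, -0.01 in glia, -0.0037 in follicular B cells and -0.22 in macrophages/monocytes. With the replicate block, 2 genes were called in BECs, 0 in stromal fibroblasts and 1 in follicular B cells, and a crossed pairing in macrophages/monocytes, added after the data were seen, called 0. Few cells limit the stromal fibroblasts, with 2 and 1 in Control 1 and DKO 2, and the LECs, with 20 in all and none in DKO 2.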
